A study of Mus musculus with 18 samples.

Results

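Zeb2, Irf8, Ikzf2, Ikzf3, Bach2 and Foxo1 encode transcription factors that act in the maturation of natural killer (NK) cells, and they were taken by name, as 6 of the 46078 gene rows of the count table. RNA of 200 sorted cells was turned into full-length cDNA with a SMART-seq kit for each of 18 bulk libraries from C57BL/6 mice 8 weeks old. Type 1 innate lymphoid cells (ILC1s) of the spleen, ILC1s of the liver and NK cells of the liver were each taken from RARa403 mice and from control mice, which gave 6 groups of 3 libraries. RARa403 mice carried Ncr1-Cre together with RARα403, a truncated dominant negative retinoic acid receptor α, at the Rosa26 locus. Control mice carried Ncr1-Cre alone, so Cre recombinase, made in cells that express NKp46, was present in every group. ILC1s were gated without CD3, with NK1.1, NKp46, CD49a and IL-7R and with low CD49b, and NK cells without CD3 or CD49a and with NK1.1, NKp46 and CD49b. Genes of the gate are therefore no finding between the cell types. NK cells of the spleen were not analysed here. Which libraries come from the same animal is not stated in the labels, so p-values measure the spread between these libraries.

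NK cells and ILC1s both use the T-box factor T-bet and both make interferon-γ. NK cells mature in steps from cells with CD27 to cells with CD11b, gain perforin and granzymes and circulate, whereas ILC1s stay in the tissue. Zeb2, a zinc finger repressor, acts with T-bet in the last steps of mouse NK maturation, and Aiolos, the product of Ikzf3, is also needed for them. Irf8, an interferon regulatory factor best known from dendritic cells, monocytes and B cells, is needed for the expansion of mouse NK cells in viral infection. Helios, the product of Ikzf2, marks many regulatory T cells and has been tied to the reactivity of mouse NK cells. Bach2, which competes with AP-1 factors for DNA, and the forkhead factor Foxo1 are described as brakes on NK maturation, and Foxo1 drives Il7r and Klf2 in lymphocytes.

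Promoter windows from RefSeq (GRCm38.p6, 250 bases before to 50 bases after a start site) were at hand for 4 of the 6 genes, with 4 windows for Zeb2, 2 for Irf8 and 1 each for Bach2 and Foxo1. A window is shown for Zeb2 and for Irf8, whose levels set NK cells apart from ILC1s below, chosen after the motif matches were seen. Capitals mark the matches, and positions count from the start site.
Irf8, chr8:120736108-120736407, plus strand: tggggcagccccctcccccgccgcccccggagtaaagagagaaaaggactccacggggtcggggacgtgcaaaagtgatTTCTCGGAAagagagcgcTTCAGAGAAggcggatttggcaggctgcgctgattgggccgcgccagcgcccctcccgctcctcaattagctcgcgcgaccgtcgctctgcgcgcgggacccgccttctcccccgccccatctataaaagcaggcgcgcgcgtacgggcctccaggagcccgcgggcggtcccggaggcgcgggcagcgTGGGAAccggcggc
Zeb2, chr2:45110228-45110527, minus strand: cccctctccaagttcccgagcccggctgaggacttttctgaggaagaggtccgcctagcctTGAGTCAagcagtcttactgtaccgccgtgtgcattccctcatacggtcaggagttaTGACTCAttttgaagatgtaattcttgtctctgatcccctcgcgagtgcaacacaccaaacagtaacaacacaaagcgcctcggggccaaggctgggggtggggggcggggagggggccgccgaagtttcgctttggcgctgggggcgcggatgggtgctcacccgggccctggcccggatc
The Irf8 window held the STAT-binding pattern TTCNNNGAA at -171 and -153 and TGGGAA, a core bound by Ikaros factors, at +37. TTCNNNGAA was also in windows 2 and 3 of Zeb2 and in the Bach2 window, which are not shown. TGGGAA was also in window 3 of Zeb2 and in the second Irf8 window, there on the other strand. Over 32851 windows of the same length, 8.30% held TTCNNNGAA and 25.6% held TGGGAA on either strand. The Zeb2 window belongs to a start site inside the annotated gene and held TGAGTCA, an element bound by AP-1 and Bach factors, at -189 and, on the other strand, at -132. TGAGTCA was present in 5.20% of all windows. The retinoic acid receptor half-site AGGTCA, found in 16.3% of all windows, was not in any of the 8 windows. The ZEB box CACCTG matched once, in the second Irf8 window, and was present in 20.2% of all windows. The FoxO element GTAAACA (3.65% of all windows), the T-box core AGGTGTGA (1.28%) and a tandem IRF element (3.44%) matched in none of the 8.

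All 6 genes are protein coding, and each passed the filter on low counts, which kept 14714 genes. Zeb2 (chr2:44983632-45117395, minus strand) had 41 to 3230 counts per library and Irf8 (chr8:120736358-120756694, plus strand) had 544 to 9502. Ikzf2 (chr1:69531214-69687245, minus strand) had 1 to 1549 counts, Ikzf3 (chr11:98464902-98546031, minus strand) 877 to 2602, Bach2 (chr4:32238804-32586108, plus strand) 32 to 995 and Foxo1 (chr3:52268336-52353221, plus strand) 171 to 1749. Levels below are log2 CPM, counts scaled to the size of the library, with a prior count of 2. Exons of Zeb2 share 653 bases with the antisense gene Zeb2os, and those of Bach2 share 537 bases with Bach2os, which had up to 37 and 49 counts in a library. Exons of Foxo1 share 674 bases with the antisense gene Gm20402, which had 0 counts in every library. Those of Ikzf2 share 144 bases with the antisense gene Gm29114, which had at most 1 count. The sources used here give no strand setting for the counting, and reads from the genes of each pair cannot be told apart.

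Libraries held 3452279 to 9038767 counts, so that 3 counts stood for 0.332 to 0.869 CPM. All 6 markers shared by NK cells and ILC1s, among them the gate genes Ncr1 and Klrb1c, were above 3 counts in every library. Of the NK markers, Itga2 encodes CD49b of the gate, so its part in the sums is no finding between the cell types. The 6 NK markers (Eomes, Itga2, Itgam, S1pr5, Klra8, Cma1) summed to 299 to 743 CPM in spleen ILC1 RARa403, 125 to 772 in spleen ILC1 control, 124 to 892 in liver ILC1 RARa403, 78.8 to 108 in liver ILC1 control, 2608 to 3362 in liver NK RARa403 and 3157 to 3908 in liver NK control libraries. Liver NK RARa403 replicate 1 stood apart: of 2735 genes above 50 CPM in all the other 17 libraries, 192 (7.02%) had at most 3 counts in it, against 0 such genes in every other library. The noncoding transcript Gt(ROSA)26Sor, of the targeted locus and looked at once its values were known, ranged over 0 to 10 counts in RARa403 replicates 2 and 3 and over 104 to 1260 in controls. RARa403 replicate 1 was in the range of controls in spleen ILC1s (365 counts) and liver ILC1s and at 0 counts in liver NK cells. Values are therefore also given without these libraries, and their part in the results was not tested.

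**Figure D1:**
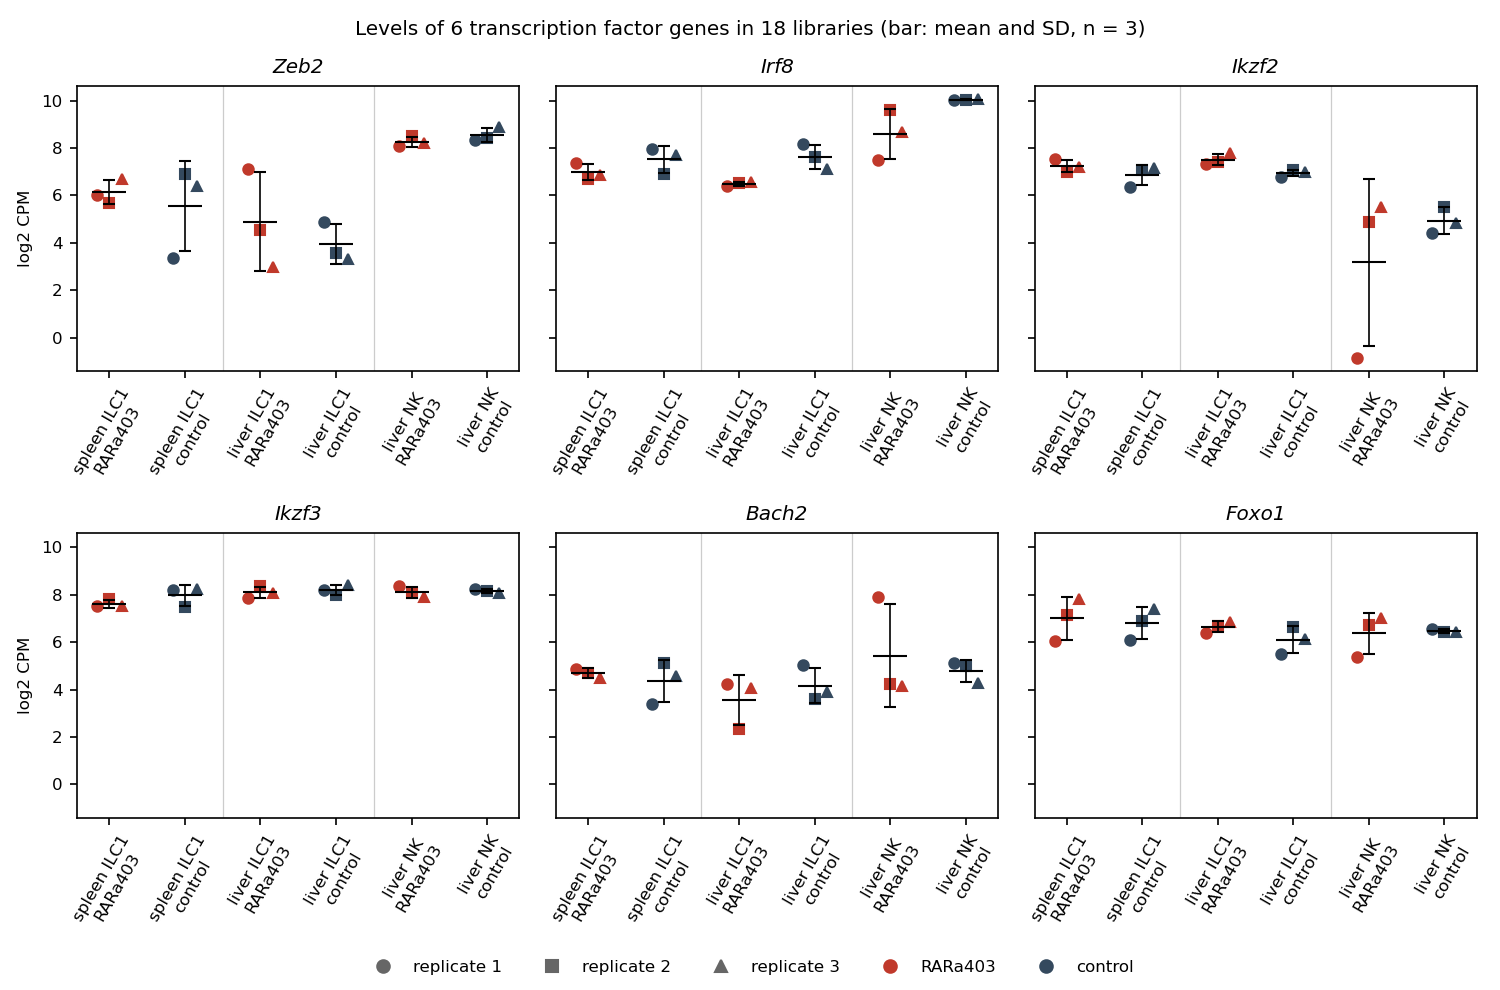
Level of each gene in log2 CPM (y axis) in each library (points) of the 6 groups (x axis), with the mean and SD of the 3 libraries of a group. Zeb2 and Irf8 are highest in the liver NK groups, Ikzf2 is highest in the ILC1 groups, and the Ikzf3 means lie within 0.58 of each other.

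Zeb2 had the widest span of group means, 4.60 on the log2 CPM scale, with liver NK cells above every ILC1 library. Its level was 7.12, 4.54 and 2.98 log2 CPM in replicates 1, 2 and 3 of liver ILC1 RARa403 and 4.89, 3.59 and 3.33 in liver ILC1 control. Spleen ILC1s stood at 6.01, 5.69 and 6.69 in RARa403 and at 3.38, 6.89 and 6.39 in control libraries. Liver NK cells stood at 8.09, 8.49 and 8.21 in RARa403 and at 8.32, 8.41 and 8.88 in control libraries. No ILC1 library reached the lowest NK library, whereas each of the 4 ILC1 groups overlapped its neighbours in the order of means, and 1 liver ILC1 RARa403 library and 1 spleen ILC1 control library stood away from the other replicates of their groups. Per exon length, Zeb2 averaged 0.851 RPKM in control liver ILC1s against 18.9 RPKM in control NK cells.

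Control liver ILC1s held 21.9-fold less Zeb2 than control liver NK cells (log2 fold change -4.46, SE 0.96, n = 3 each, Benjamini-Hochberg adjusted p = 0.0461 in edgeR's quasi-likelihood test). In this comparison 2 of the 6 genes, Zeb2 and Irf8, passed the threshold of 0.05, where 0.605% of all tested genes did. In bulk libraries, fewer cells with a transcript and less transcript per cell cannot be told apart. The Zeb2 call rested on the whole set of libraries: with 1 library left out it held in 5 of 18 fits (without spleen ILC1 control replicate 1, any liver ILC1 RARa403 replicate or liver NK RARa403 replicate 1), and the adjusted p was 0.0530 to 0.256 in the other 13. It was also lost with the opening digit of the description code, described below, as a term (edgeR adjusted p = 0.0543). Either form of replicate block, given in the last section, lost the call too. The mean over both genotypes, 6 libraries against 6, gave an 11.0-fold lower level in liver ILC1s (-3.45, SE 0.65, adjusted p = 0.00852 in edgeR), which passed in all 28 alternatives with an adjusted p of at most 0.0351. There 3 of the 6 genes were called, where 2.09% of all tested genes were. Between RARa403 liver ILC1s and RARa403 liver NK cells the difference was -2.45 (SE 0.88, edgeR adjusted p = 0.264). With 1 library left out that difference ranged from -4.34 to -1.94 and passed in 0 of 18 fits (edgeR adjusted p 0.0533 to 0.619). Its size beside the control difference therefore depends on single libraries. The Zeb2 difference was -2.41 (SE 0.87) between control spleen ILC1s and control liver NK cells. Between RARa403 spleen ILC1s and RARa403 liver NK cells it was -2.08 (SE 0.86), and neither passed (edgeR adjusted p = 0.508 and 0.326).

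Zeb2 and the NK markers were high in the same ILC1 libraries. Liver ILC1 RARa403 replicate 1, with 7.12 log2 CPM of Zeb2, had 892 CPM of the 6 summed NK markers, against 124 and 151 CPM in replicates 2 and 3. Spleen ILC1 control replicate 1, at 3.38 log2 CPM of Zeb2, had 125 CPM of NK markers, against 772 and 383 CPM in replicates 2 and 3. Klra8, a receptor gene of the Ly49 family, had 2586, 416 and 2 counts in the 3 liver ILC1 RARa403 libraries and 2, 0 and 6 in liver ILC1 controls. Cma1, a mast cell protease gene used as an NK marker, was at 0 in 1 spleen ILC1 RARa403 library, 1 liver ILC1 RARa403 library and 2 liver ILC1 control libraries. The part of the NK marker level in the Zeb2 level was not tested.

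**Figure D2:**
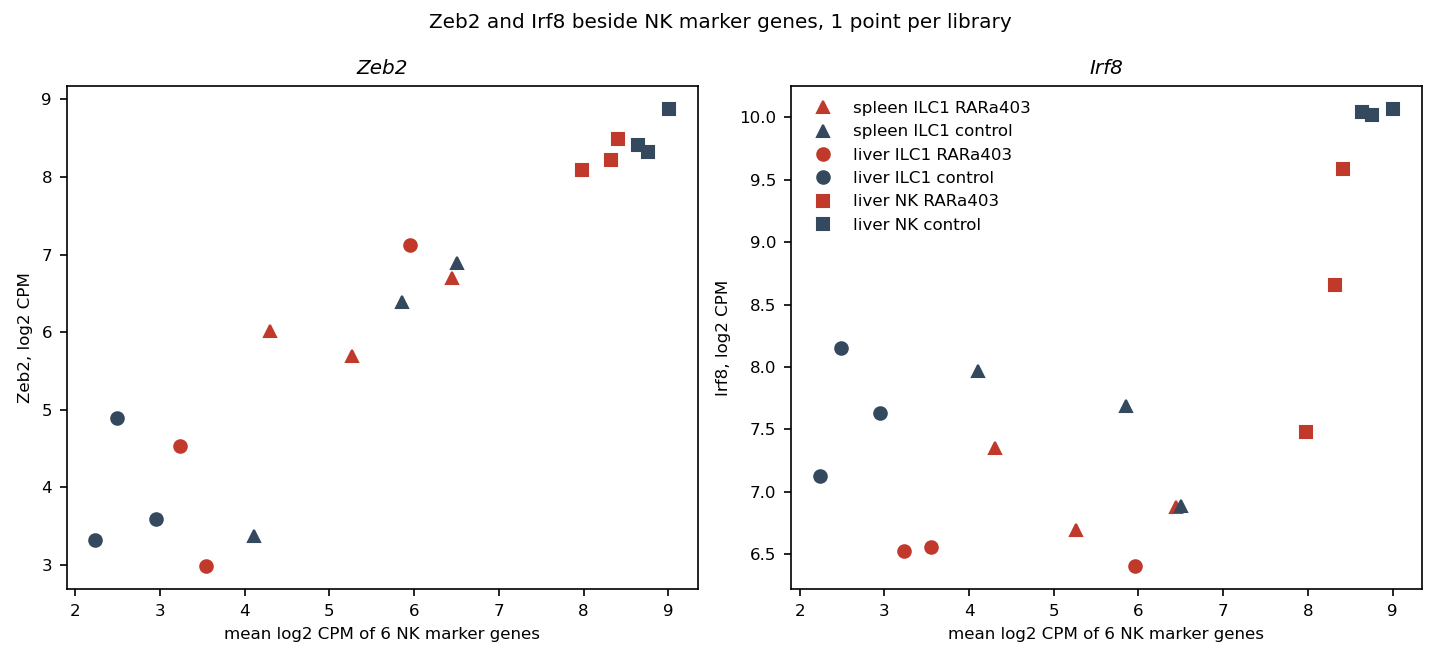
Zeb2 (left) and Irf8 (right) in log2 CPM (y axis) against the mean log2 CPM of 6 NK marker genes (x axis), with 1 point for each of the 18 libraries. The NK markers include Itga2, a gene of the gate. Colour shows the genotype and the shape of a point the cell population. The 3 ILC1 libraries with the most NK marker transcript have 6.69 to 7.12 log2 CPM of Zeb2, and the 6 liver NK libraries lie at 8.09 to 8.88.

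Irf8 had the most even levels within control NK cells and the difference that passed in the most comparisons. Liver ILC1s had 6.40, 6.53 and 6.56 log2 CPM in RARa403 and 8.15, 7.63 and 7.13 in control libraries. Spleen ILC1s had 7.35, 6.69 and 6.88 in RARa403 and 7.97, 6.89 and 7.69 in control libraries. Liver NK cells had 7.48, 9.58 and 8.65 in RARa403 and 10.02, 10.04 and 10.07 in control libraries. The 3 control NK libraries were above all other 15 libraries, and the 3 liver ILC1 RARa403 libraries were below all others. The 4 groups between them overlapped with their neighbours in the order of means, which ran from liver NK RARa403 through liver ILC1 control and spleen ILC1 control to spleen ILC1 RARa403. Per exon length, Irf8 averaged 29.3 RPKM in control liver ILC1s and 149 RPKM in control NK cells, where it was the highest of the 6 genes.

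Irf8 was 5.09-fold lower in control liver ILC1s than in control liver NK cells (log2 fold change -2.35, SE 0.44, edgeR adjusted p = 0.0212). RARa403 liver ILC1s held 4.98-fold less than RARa403 liver NK cells (-2.32, SE 0.44, edgeR adjusted p = 0.0267), the only call among the 6 genes there, where 0.401% of all tested genes passed. These pairs of groups share no library. Without liver NK RARa403 replicate 1, which had the lowest Irf8 of the NK libraries, that difference was -2.68 (edgeR adjusted p = 0.00135). The mean over genotypes was -2.33 (SE 0.31, 5.03-fold lower in liver ILC1s, edgeR adjusted p = 0.000499) and passed in all 28 alternatives, with an adjusted p of at most 0.00561. With 1 library left out, the control comparison kept its call in 13 of 18 fits and lost it without liver ILC1 control replicate 2 (adjusted p = 0.0889) or 3 (0.132) or liver NK control replicate 1 (0.0812), 2 (0.0691) or 3 (0.0853). The RARa403 comparison kept it in 15 and lost it without liver ILC1 RARa403 replicate 1 (0.107), 2 (0.145) or 3 (0.130), and also when only its own 2 groups were fitted (0.634). With either form of replicate block, given in the last section, the RARa403 call was lost. The control call was lost with the block by description code.

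The comparisons of spleen ILC1s use the same liver NK libraries as those of liver ILC1s, and organ and cell type differ together in them. Irf8 was 5.49-fold lower in control spleen ILC1s than in control liver NK cells (-2.46, SE 0.44, edgeR adjusted p = 0.0230), the only gene of the 6 past the threshold, where 0.313% of all genes were. That call was kept in 12 of 18 fits with 1 library left out and lost without any of the 3 spleen ILC1 control libraries (adjusted p = 0.0627, 0.110 and 0.0857 for replicates 1, 2 and 3) or the 3 liver NK control libraries (0.101, 0.0771 and 0.101). It was also lost with either form of replicate block. Between RARa403 spleen ILC1s and RARa403 liver NK cells the Irf8 difference was -1.81 (SE 0.43, edgeR adjusted p = 0.119), and 0 of the 6 genes passed there, where 0.238% of all genes did. In that comparison 4 of the 6 (Zeb2, Irf8, Ikzf2 and Bach2) had an unadjusted p under 0.05, and DESeq2 called 2. Without liver NK RARa403 replicate 1 the Irf8 difference was -2.17 and passed (edgeR adjusted p = 0.00950), as did Ikzf2.

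Myeloid cells, dendritic cells and B cells also express Irf8, and their marker levels are given beside it. The 10 myeloid and dendritic markers summed to 228 to 297 CPM in liver ILC1 RARa403, 354 to 528 in liver ILC1 control, 127 to 237 in liver NK RARa403 and 202 to 333 in liver NK control libraries. In the same order, 2 to 6, 2 to 7, 1 to 3 and 2 to 3 of the 10 were above 3 counts. The 8 B cell markers summed to 457 to 623 CPM in liver ILC1 RARa403, 414 to 782 in liver ILC1 control, 34.5 to 359 in liver NK RARa403 and 213 to 236 in liver NK control libraries. Of the 8, 2 to 3 were above 3 counts in a library of either liver ILC1 group, so few genes made up these sums. It was 1 to 5 in liver NK RARa403 and 1 to 4 in liver NK control libraries. Cd79a, a part of the B cell receptor, had 0 to 17 counts in liver ILC1 RARa403, 0 to 5 in liver ILC1 control, 0 to 2 in liver NK RARa403 and 0 to 23 in liver NK control libraries. In spleen ILC1s the B cell markers summed to 333, 1028 and 755 CPM in RARa403 replicates 1, 2 and 3. They summed to 336, 738 and 3224 CPM in control replicates 1, 2 and 3. All 8 were above 3 counts in replicates 2 and 3 of both genotypes. The myeloid and dendritic markers summed to 191 to 256 CPM in spleen ILC1 RARa403 and 283 to 877 CPM in spleen ILC1 control libraries, highest in control replicate 3. The Irf8 level of spleen ILC1 control replicate 3, 7.69 log2 CPM, lay between those of the other 2 libraries of its group. The part of these cells in the Irf8 level was not tested.

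Ikzf3, needed in mice for the last maturation steps, had group means within 0.58 of each other on the log2 CPM scale. Its group means were 7.61 ± 0.16 log2 CPM in spleen ILC1 RARa403, 7.97 ± 0.44 in spleen ILC1 control, 8.10 ± 0.25 in liver ILC1 RARa403, 8.19 ± 0.22 in liver ILC1 control, 8.11 ± 0.24 in liver NK RARa403 and 8.16 ± 0.07 in liver NK control (SD, n = 3 each). Neighbours in the order of these means all overlapped. The mean difference of liver ILC1s from liver NK cells over both genotypes was 0.02 (SE 0.18, edgeR adjusted p = 1.00). RARa403 spleen ILC1s, at 7.51, 7.80 and 7.53 log2 CPM, lay below all RARa403 liver ILC1 libraries (7.88, 8.36 and 8.06) and all RARa403 liver NK libraries (8.36, 8.07 and 7.89). Those differences were -0.49 (SE 0.25) and -0.50 (SE 0.25), and neither passed (edgeR adjusted p = 1 and 0.421).

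Ikzf2 was higher in ILC1s of both organs than in liver NK cells, the opposite of Zeb2 and Irf8. It had 7.31, 7.42 and 7.77 log2 CPM in liver ILC1 RARa403 and 6.79, 7.05 and 6.97 in liver ILC1 control libraries. In spleen ILC1s it had 7.53, 7.00 and 7.18 in RARa403 and 6.36, 7.09 and 7.14 in control libraries. In liver NK cells it had -0.87, 4.90 and 5.52 in RARa403 and 4.42, 5.53 and 4.84 in control libraries. Each of the 12 ILC1 libraries was above each of the 6 NK libraries, and the value of -0.87 in liver NK RARa403 replicate 1 stood for 1 count, in the library that lacked many common transcripts. Per exon length, the means were 15.7 and 10.6 RPKM in RARa403 and control liver ILC1s, 13.1 and 10.3 RPKM in RARa403 and control spleen ILC1s, and 2.16 and 2.74 RPKM in RARa403 and control NK cells.

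The mean over genotypes was 5.29-fold higher in liver ILC1s than in liver NK cells (log2 fold change 2.40, SE 0.57, edgeR adjusted p = 0.0386). The single comparisons gave 2.86 (SE 0.82) in RARa403 and 1.95 (SE 0.80) in control liver ILC1s, and 2.60 (SE 0.82) in RARa403 and 1.92 (SE 0.80) in control spleen ILC1s, none past the threshold (edgeR adjusted p = 0.187, 0.544, 0.200 and 0.632). These calls turned on liver NK RARa403 replicate 1, which enters every fit through the shared estimate of spread. Without it, 16565 genes were tested and all 5 differences passed in edgeR's quasi-likelihood test: 2.12 for the mean over genotypes (adjusted p = 4.67e-05), 2.31 and 1.94 in RARa403 and control liver ILC1s (0.00547 and 0.00227), and 2.05 and 1.92 in RARa403 and control spleen ILC1s (0.0191 and 0.00385). Of all genes tested without it, 3.04%, 0.495%, 1.75%, 0.302% and 0.930% passed in these comparisons in the same order. With all 18 libraries, leaving out any 1 of the 16 libraries other than liver NK RARa403 replicates 1 and 3 ended the call of the mean over genotypes (adjusted p 0.0509 to 0.122), as did fitting only the groups compared (0.133). A block by description code, given in the last section, ended that call as well. The summed T cell markers were higher in all 12 ILC1 libraries than in all 6 NK libraries, as Ikzf2 was. The 8 of them summed to 740 to 1105 CPM in liver ILC1 RARa403, 611 to 933 in liver ILC1 control, 605 to 730 in spleen ILC1 RARa403 and 660 to 1059 in spleen ILC1 control libraries, against 137 to 184 in liver NK RARa403 and 115 to 187 in liver NK control libraries. In the mean over genotypes 5 of the 8 were called higher in liver ILC1s, among them Cd3e, a part of the T cell receptor complex, with 31 to 769 counts in RARa403 and 51 to 150 in control liver ILC1s against 0 to 1 in RARa403 and 0 to 3 in control NK cells. Foxp3, the factor that defines regulatory T cells, had 25 and 2 counts in liver ILC1 RARa403 replicates 1 and 2 and 0 in the other 16 libraries. The part of T cells in the Ikzf2 level was not tested. Genes inside the Ikzf2 introns on the same strand, Gm29112 and Gm28112, had up to 159 and 79 counts.

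**Figure D3:**
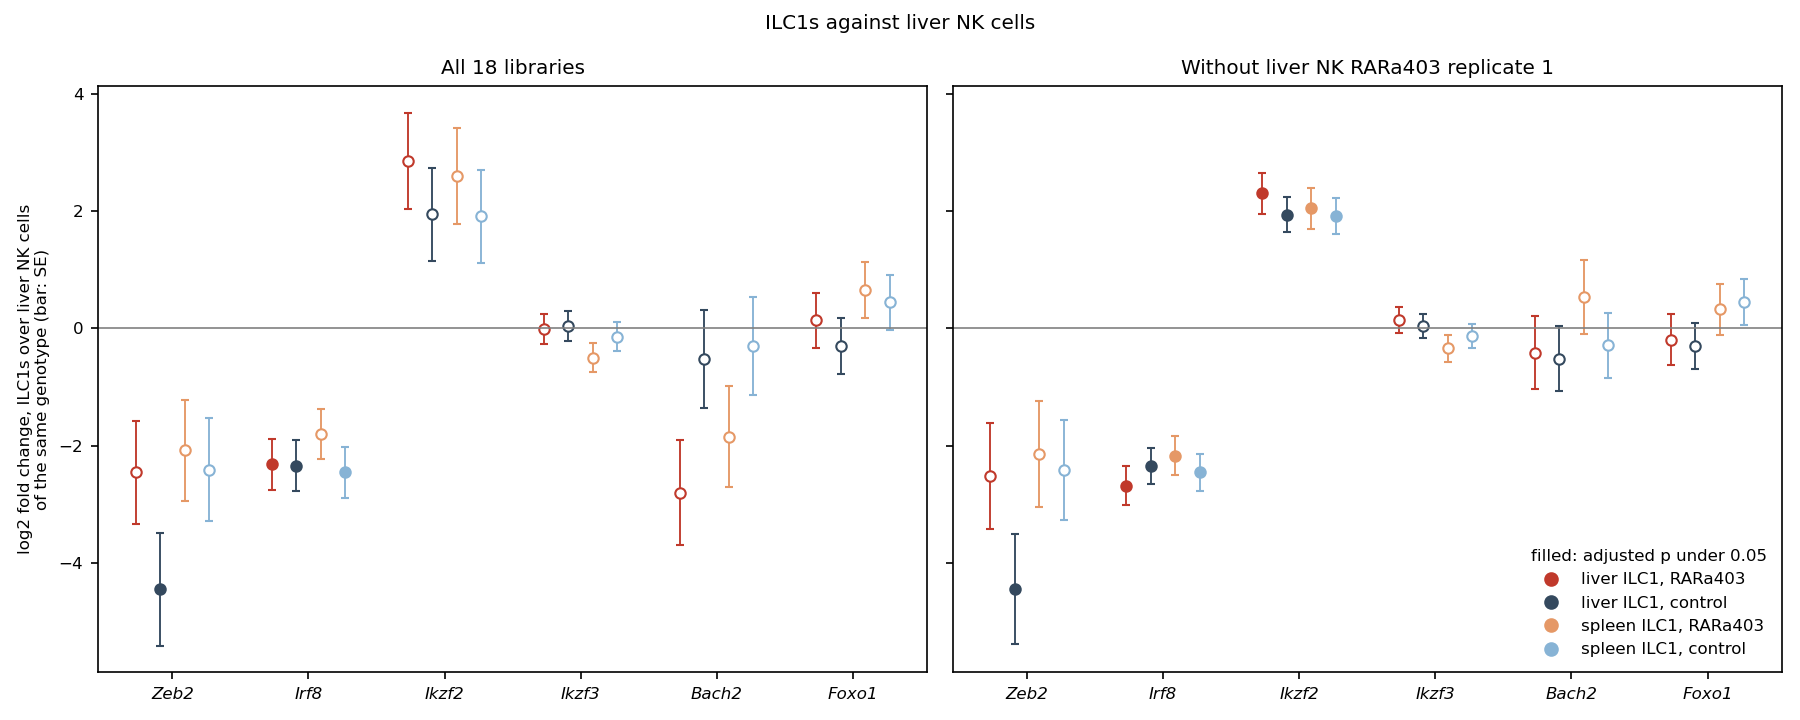
Log2 fold change of ILC1s over liver NK cells (y axis, bars are 1 SE) for each of the 6 genes (x axis), with filled points for an adjusted p under 0.05, from all 18 libraries (left) and without liver NK RARa403 replicate 1 (right). Zeb2 and Irf8 lie below 0 and Ikzf2 above 0 in every comparison, and the Ikzf2 points become filled in the right panel.

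In each of the 4 ILC1 comparisons with NK cells the libraries of Zeb2 and Irf8 were lower without overlap and those of Ikzf2 higher without overlap. The share of all tested genes that were lower without overlap was 4.71% in RARa403 and 8.20% in control liver ILC1s, and 4.47% in RARa403 and 6.89% in control spleen ILC1s. The share that were higher without overlap was 7.58%, 8.71%, 6.97% and 8.99% in the same comparisons.

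Bach2 and Foxo1, described as brakes on maturation, did not pass between the cell types with all 18 libraries and the filter on low counts in edgeR. Bach2 had 4.24, 2.35 and 4.06 log2 CPM in liver ILC1 RARa403 and 5.02, 3.59 and 3.89 in liver ILC1 control libraries. In liver NK cells it had 7.92, 4.21 and 4.17 in RARa403 and 5.10, 4.98 and 4.27 in control libraries. Spleen ILC1s had 4.88, 4.71 and 4.48 in RARa403 and 3.39, 5.13 and 4.58 in control libraries. One library, liver NK RARa403 replicate 1, was far above the other 17, whose highest value was 5.13, and all groups overlapped their neighbours in the order of means. RARa403 liver ILC1s differed from RARa403 liver NK cells by -2.80 (SE 0.89, edgeR adjusted p = 0.220), a difference that DESeq2 (adjusted p = 0.0221) and edgeR without the filter (0.00371) called, and by -0.41 (SE 0.62) without that library. The mean over genotypes was -1.66 (SE 0.61, unadjusted p = 0.0146, edgeR adjusted p = 0.213), called without the filter (edgeR adjusted p = 0.0172) and not by DESeq2 (0.0695), and it was -0.47 (SE 0.42, edgeR adjusted p = 0.748) without that library. The control liver groups differed by -0.52 (SE 0.84).

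Foxo1 had 6.39, 6.69 and 6.86 log2 CPM in liver ILC1 RARa403 and 5.51, 6.65 and 6.12 in liver ILC1 control libraries. It had 6.03, 7.13 and 7.82 in spleen ILC1 RARa403 and 6.09, 6.89 and 7.41 in spleen ILC1 control libraries, and 5.39, 6.73 and 7.00 in liver NK RARa403 and 6.55, 6.41 and 6.41 in liver NK control libraries. The SD within the spleen groups was 0.90 in RARa403 and 0.67 in control libraries, beside a span of 0.90 between the highest and lowest of the 6 group means. Liver ILC1s differed from liver NK cells by -0.08 over both genotypes (SE 0.34, edgeR adjusted p = 0.995). A p that misses the threshold does not show equal levels.

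Spleen and liver ILC1s were compared within each genotype, and 0 of the 6 genes and 0% of all tested genes passed in either. In controls the largest difference was that of Zeb2, 2.04 higher in the spleen (SE 0.87, unadjusted p = 0.0320, edgeR adjusted p = 1), with overlapping groups. It was the only gene of the 6 with an unadjusted p under 0.05, DESeq2 called 0 of the 6, and the fit without a filter on low counts called Zeb2. In RARa403 libraries no unadjusted p was under 0.05, and DESeq2 called 0. There Irf8 (0.51, SE 0.42) and Bach2 (0.96, SE 0.85) were higher in the spleen without overlap, as were 4.24% of all tested genes, and Ikzf3 was lower without overlap, as were 4.72%. The 7 hepatocyte markers summed to 130 CPM in spleen ILC1 RARa403 replicate 1, against 5.07 and 5.82 CPM in replicates 2 and 3. Their sums were 10.3 to 22.3 CPM in spleen ILC1 control libraries. In liver ILC1s they were 5.78 to 20.0 CPM in RARa403 and 12.9 to 153 CPM in control libraries. The part of liver transcripts in these comparisons was not tested.

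RARa403 against control is what the series title asks about, namely whether ILC1s depend on signalling through retinoic acid receptors. None of the 6 genes passed in spleen ILC1s, liver ILC1s, liver NK cells or the mean of the 3 populations, and neither did any other tested gene (0% in each). Irf8 was lower in RARa403 libraries in each, and had the smallest p of the 6 except in spleen ILC1s, where Ikzf3 had it. The difference was -1.20 in ILC1s of the liver (SE 0.42, 2.30-fold lower, unadjusted p = 0.0117, edgeR adjusted p = 1) and -1.23 in liver NK cells (SE 0.42, 2.35-fold lower, unadjusted p = 0.00995, edgeR adjusted p = 0.428). It was -0.58 in spleen ILC1s (SE 0.42, unadjusted p = 0.184, edgeR adjusted p = 1). The mean of the 3 populations was -1.003 (SE 0.24, unadjusted p = 0.000764, edgeR adjusted p = 0.489).

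All 3 RARa403 libraries were below all 3 controls for Irf8 in ILC1s and NK cells of the liver, and 2 of 3 were in spleen ILC1s. Of all tested genes, 4.43% were lower without overlap in liver ILC1s, 4.72% were in liver NK cells and 4.87% in spleen ILC1s. At an unadjusted p under 0.05, 1 of the 6 genes (Irf8) was counted in liver ILC1s, 1 (Irf8) in liver NK cells, 0 in spleen ILC1s and 1 (Irf8) in the mean, beside 432, 1418, 425 and 931 of the 14714 tested genes. DESeq2 called 0, 0, 0 and 1 of the 6, and 33, 153, 20 and 78 of all genes. Irf8 passed in the mean with DESeq2 (adjusted p = 0.0130) and without a filter on low counts (edgeR adjusted p = 0.00321), and in none of the other 24 alternatives, whose estimates ranged from -1.21 to -0.77 with those 2 included.

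The samples' description codes open with the digit 1 for replicate 1 and 2 for replicates 2 and 3, and the labels do not say what the digit means. Within digit 1, with 1 library a group, Irf8 in RARa403 minus control was -0.62 log2 CPM in spleen ILC1s, -1.74 in ILC1s of the liver and -2.54 in NK cells. Within digit 2, with 2 libraries a group, the differences were -0.50, -0.83 and -0.94 in the same order. Irf8 was lower in RARa403 within both digits in all 3 populations, but the RARa403 libraries of digit 1 are the replicate 1 libraries set apart above. Those of spleen and liver ILC1s had counts of the targeted locus in the range of controls, and that of liver NK cells lacked many common transcripts. Only the differences within digit 2 are free of these libraries. The liver NK difference was -0.86 without liver NK RARa403 replicate 1 (edgeR adjusted p = 1), and the mean was -0.88 (edgeR adjusted p = 0.206), where 0.00604% and 0.0483% of all genes passed. With RARa403 replicate 1 of every population left out the mean was -0.94 (SE 0.20, edgeR adjusted p = 0.296).

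**Figure D4:**
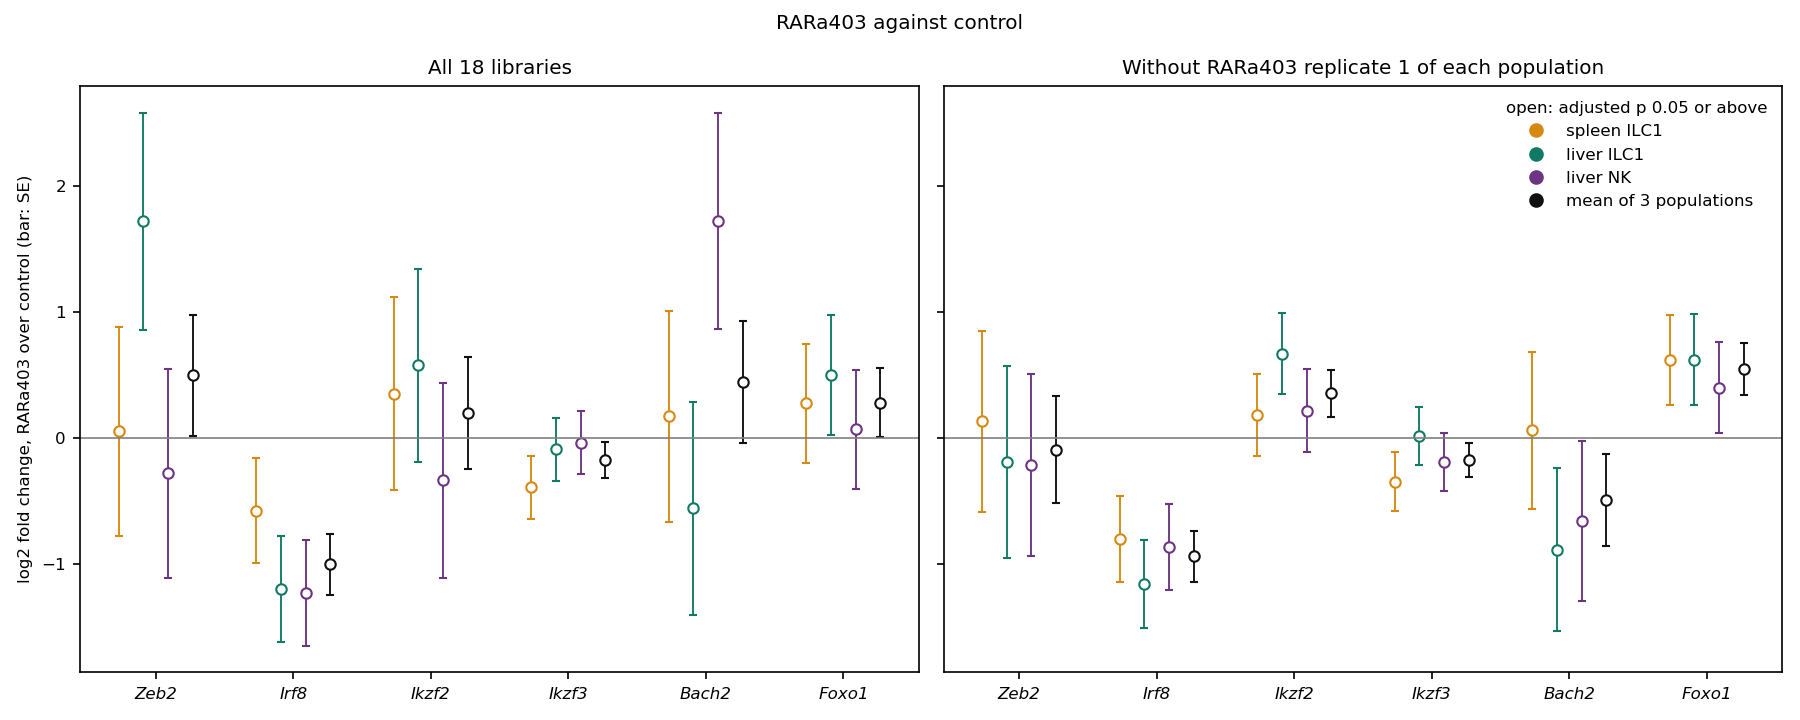
Log2 fold change of RARa403 over control (y axis, bars are 1 SE) for each gene in spleen ILC1s, liver ILC1s, liver NK cells and their mean, from all 18 libraries (left) and without RARa403 replicate 1 of each population (right). Open points mark an adjusted p of 0.05 or more, which holds for every point, and Irf8 lies below 0 throughout.

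Of the other 5 genes, Zeb2 and Bach2 had their widest differences in a population where a single library changed the sign. Zeb2 was 1.72 higher in RARa403 than in control liver ILC1s (SE 0.86, edgeR adjusted p = 1), and the difference was -0.16 once RARa403 replicate 1, the library with the most NK marker transcript of its group, was left out. Bach2 was 1.72 higher in RARa403 than in control liver NK cells (SE 0.86, edgeR adjusted p = 0.534), and the difference was -0.65 without RARa403 replicate 1. Ikzf2 was higher without overlap in RARa403 liver ILC1s, as were 5.08% of all tested genes, with a difference of 0.58 (SE 0.77, edgeR adjusted p = 1), and it stood at 0.52 within digit 1 and 0.59 within digit 2, whereas in liver NK cells it differed by -5.29 within digit 1 and 0.02 within digit 2. Foxo1 differed by 0.50 (SE 0.48) in liver ILC1s, 0.07 (SE 0.47) in liver NK cells and 0.27 (SE 0.47) in spleen ILC1s, and the liver NK value was -1.16 within digit 1 and 0.45 within digit 2. Ikzf3 differed by -0.09 (SE 0.25) in liver ILC1s, -0.04 (SE 0.25) in liver NK cells and -0.39 (SE 0.25) in spleen ILC1s.

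Whether the RARa403 difference itself differed between populations was tested as an interaction. None of the 6 genes passed and 0% of all genes did, and none of the 6 had an unadjusted p under 0.05 or a DESeq2 call. The Irf8 difference in liver ILC1s minus that in liver NK cells was 0.03 (SE 0.59, edgeR adjusted p = 1.00), and that in spleen minus liver ILC1s was 0.62 (SE 0.59, edgeR adjusted p = 1.00). The values furthest from 0 were those of Bach2, -2.28 for liver ILC1s minus liver NK cells (SE 1.20), and of Zeb2, 2.00 for the same contrast (SE 1.19), with edgeR adjusted p of 0.819 and 0.845. The Bach2 value was 0.10 without liver NK RARa403 replicate 1. The Zeb2 value also hung on single libraries, and ranged from 0.12 to 2.67 with 1 library left out.

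The family lists in this paragraph include the 6 genes themselves, and no other relative in them passed in the mean over genotypes. In the mean over genotypes of liver ILC1s against liver NK cells, the median log2 fold change of all tested genes was 0.05 and 2.09% of them were called in either direction, beside which the counts of each list below stand. Of the 9 interferon regulatory factors 1 was called, Irf8, with a median of -0.02, and Irf7, which amplifies type I interferon, had -0.02 (SE 0.31). Of the 5 Ikaros factors 1 was called, Ikzf2, and the founding member Ikzf1 had -0.12 (SE 0.19). Ikzf4, the gene of Eos, had 0 to 16 counts in RARa403 and 8 to 16 in control liver ILC1s and 0 in all 6 liver NK libraries, and did not pass (edgeR adjusted p = 0.0945). Of the 4 Zeb and Bach factors 1 was called, Zeb2, and its paralog Zeb1 had 0.07 (SE 0.38). Of the 4 FoxO factors 3 were tested and 0 called, with Foxo3 at 0.65 (SE 0.39).

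Among 25 other factors of NK maturation, 2 were higher and 2 lower in liver ILC1s, with a median of -0.30. Eomes, the T-box factor that defines NK cells and was on the NK marker list, was lower (-4.21, SE 0.71, edgeR adjusted p = 0.00355), as was Lef1, a partner of Wnt signalling (-1.29, SE 0.30, edgeR adjusted p = 0.0345). Bcl11b, a factor of T cell and innate lymphoid commitment, was higher (3.91, SE 0.83, edgeR adjusted p = 0.0188), with 379 to 680 counts in RARa403 and 181 to 492 in control liver ILC1s against 0 to 35 in RARa403 and 0 to 88 in control NK cells. Id3, an inhibitor of E proteins, was also called higher, with 8 to 84 counts in RARa403 and 27 to 265 in control liver ILC1s against 0 to 1 in RARa403 and 6 to 13 in control NK cells. T-bet itself, Tbx21, had -0.27 (SE 0.18) and did not pass.

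Genes that mark late NK maturation were lower in liver ILC1s where they were called: 6 of 12 passed lower and 0 higher, with a median of -2.59, where 2.09% of all tested genes were called. They were the integrin gene Itgam, which encodes CD11b (-3.58, SE 0.42), the granule genes Gzma (-2.41, SE 0.39) and Prf1 (-2.24, SE 0.38), the egress receptor S1pr5 (-3.73, SE 0.81), Cma1 and Serpinb9b, each with an edgeR adjusted p of at most 0.0225. Serpinb9b, a serpin gene, had 0 counts in all 3 RARa403 and 0 to 35 in control liver ILC1s, against 32 to 4690 in RARa403 and 863 to 2429 in control NK cells. Of 13 genes of early or memory-like NK cells, 7 were called higher, beside the same 2.09%, with a median of 1.58 over the list. The higher ones included Cd7 (2.07, SE 0.19), the lymphotoxin gene Ltb (2.24, SE 0.31), the chemokine receptor Cxcr3 (2.83, SE 0.46), the chemokine Xcl1 (2.06, SE 0.36), Thy1 and the gate gene Il7r, each with an edgeR adjusted p of at most 0.0203. Of 14 FoxO1 target genes of lymphocytes, Il7r was called higher, and the median was -0.16. Klf2, which encodes a factor of lymphocyte quiescence and egress, had -1.57 (SE 0.50, edgeR adjusted p = 0.139). Cd79a, Cd3e, Foxp3, Irf7, Ikzf1, Ikzf4, Zeb1, Tbx21 and Klf2 were singled out here after their values were seen. These lists overlap with the marker lists and with each other, and in the RARa403 comparisons 0 of their genes passed in edgeR with all 18 libraries, beside the Irf8 calls by DESeq2 and without the filter given above.

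For the 3 genes whose group means span at least 2 log2 CPM, the most similar patterns were sought among 9386 named genes over the 17 libraries other than liver NK RARa403 replicate 1. The measure was the root mean square difference of log2 CPM after each gene was centred on its own mean. Zeb2, with a root mean square of 1.96 around its own mean, was nearest to the myelin glycoprotein gene Mag at 0.794, the fatty acid elongase gene Elovl7 at 0.846 and S1pr5 at 0.894. Irf8, at 1.28, was nearest to Serpinb9 (0.582), which encodes a granzyme B inhibitor, to the NK receptor gene Klri2 (0.700) and to the perforin gene Prf1 (0.712). Ikzf2, at 1.03, was nearest to Ly6e (0.436), a membrane protein gene induced by interferon, to the proton channel gene Hvcn1 (0.441) and to the costimulatory receptor gene Icos (0.444). These genes share the libraries and their depth, and the values are a description.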

How the data were processed

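The deposited table holds whole-number gene counts for all 18 libraries, with 0 columns left over. The tools named in the submitters' processing notes are fastp 0.23.0, which trims reads, HISAT2 2.1.0, an aligner, and featureCounts of Subread 1.6.5, which counts reads per gene, with mm10 as the genome build. Annotation release, strand setting and multi-mapping rule were not stated. Of 46078 genes, 935 had no symbol and held 0.0544% of counts.

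Genes were kept by filterByExpr (minimum count 10). TMM scaling and a quasi-likelihood model with 6 group means over all 18 libraries were fitted with edgeR 4.0.16 in R 4.3.3, which gave a common biological coefficient of variation of 0.862. The steps were tested on simulated data. P-values were adjusted over all 14714 tested genes of a comparison (Benjamini-Hochberg, threshold 0.05), and SEs were derived from the F statistic. RPKM used the union of annotated exons. Libraries held 3452279 to 9038767 counts, and precision was limited by counting error at low counts and by 3 libraries per group. Tables and figures were made with pandas 2.3.3 and matplotlib 3.10.9.

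The 6 genes, the gene lists and the tests were chosen with earlier results of these data known. From each list the genes called were named, at most 6 with the smallest p, and otherwise at most 2, and any other gene was named after its values were seen. Results of some list genes are not reported here. Alternatives were DESeq2 1.42.0, RLE scaling, no filter, only the groups compared, 2 forms of a replicate block, the opening digit of the description code, limma-voom (limma 3.58.1) with quality weights, replicates 2 and 3 only, and each library left out. Leaving out RARa403 replicate 1 of all populations was added after the data were seen. Replicate numbers were not treated as pairs in the main fit, since the labels do not tie a number to an animal. Fits with a replicate block are given below.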

Additional observations from a re-analysis of the deposited data

How the results depend on the processing

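Of 2154 values of the 6 genes under the alternatives, 2041 kept their side of the threshold without a reversal, 54 lost a call, 41 gained one and 18 reversed. A value within 1 SE of 0 that changed sign without a call was not counted as reversed. The 84 such values are among the 2041. RLE scaling changed no call of the 6 genes.

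All 18 reversals concern Bach2 or Zeb2, and the cause was not tested. Bach2 in RARa403 spleen ILC1s against RARa403 liver NK cells became 0.40 with limma-voom, 0.42 with replicates 2 and 3 only and 0.43 without RARa403 replicate 1 of every population, and ranged from -2.36 to 0.54 with 1 library left out (0.54 without liver NK RARa403 replicate 1). Bach2 in RARa403 against control liver NK cells became -0.57, -0.50 and -0.66 under the same settings (-0.65 to 2.23 with 1 library left out, the lowest without liver NK RARa403 replicate 1). Its interaction, liver ILC1s minus liver NK cells, became 0.082 with limma-voom and 0.19 with replicates 2 and 3 only (-2.78 to 0.10, the highest without that library). Zeb2 in RARa403 against control liver ILC1s became -0.19 without RARa403 replicate 1 of every population (-0.16 to 2.39, the lowest without liver ILC1 RARa403 replicate 1). Its mean over populations became -0.070 with replicates 2 and 3 only and -0.093 without RARa403 replicate 1 (-0.13 to 0.72), and its interaction, spleen minus liver ILC1s, became 0.32 without RARa403 replicate 1 (-2.34 to 0.21).

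The number of the 6 genes called moved as follows. In the control comparison of liver ILC1s with NK cells it was 2, and 3 without a filter, with limma-voom, with only the groups compared and with either removal of replicate 1, and 1 with the opening digit as a term (0 to 3 with 1 library left out). In RARa403 liver ILC1s against RARa403 liver NK cells it was 1, and 3 with DESeq2, 4 without a filter, 0 with only the groups compared, 3 with limma-voom, 3 with replicates 2 and 3 only and 3 without RARa403 replicate 1 (0 to 2 with 1 library left out). In control spleen ILC1s against control NK cells it was 1, and 3 without a filter, 3 with limma-voom and 2 with either removal of replicate 1 (0 to 2). In RARa403 spleen ILC1s against RARa403 liver NK cells it was 0, and 2 with DESeq2, 3 without a filter, 2 with limma-voom, 2 with replicates 2 and 3 only and 1 without RARa403 replicate 1 (0 to 2). In the mean over genotypes it was 3, and 4 without a filter and 2 with only the groups compared (2 to 3). Control spleen against control liver ILC1s went to 1 without a filter, and the mean RARa403 effect to 1 with DESeq2 and 1 without a filter, from 0 in both.

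Same-numbered libraries correlated at -0.033 to 0.245 in their deviations over 45 pairs, and 5 pairs were over 0.1. Of the 45, 30 correlated best with their own number. Between groups of the same genotype this held for every library pair except replicate 2 of spleen ILC1 RARa403 and liver NK RARa403. Between groups of different genotype, which cannot share an animal, other numbers were often the best partner. Same-numbered libraries of a genotype may therefore share a deviation that the main fit leaves out, and its p-values do not allow for it. The labels do not tie a number to an animal, and the numbers were therefore not taken as pairs in the main fit. With the replicate number as a block, 1 gene was called in control liver ILC1s against NK cells (Zeb2 adjusted p = 0.0878, Irf8 0.0425 in edgeR), 0 in RARa403 liver ILC1s (Irf8 0.0693) and 0 in control spleen ILC1s (Irf8 0.0560). With a block by description code, which joins same-numbered libraries within a genotype, it was 0, 0 and 0. Ikzf2 in the mean over genotypes then had an edgeR adjusted p of 0.0874.

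Genes called over the whole table ranged widely: 18 to 479 around 89 in control liver ILC1s against NK cells, 0 to 794 around 59 in RARa403 liver ILC1s, 160 to 966 around 307 in the mean over genotypes, 7 to 316 around 46 in control spleen ILC1s and 0 to 811 around 35 in RARa403 spleen ILC1s. The comparisons with 0 reached 32 to 523 without the filter.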
